A study of Homo sapiens with 12 samples.

Results

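The genes described are 6 chemokine genes, CXCL10, CXCL11, CXCL12, CXCL14, CXCL16 and CX3CL1, taken by gene symbol from a table of 27106 genes. They are the CXC and CX3C chemokines other than the neutrophil-attracting ones, and all 6 had a row in the table. RNA with poly(A) tails came from IMR90 hTERT cells, human lung fibroblasts that carry telomerase and an oncogenic Ras that tamoxifen activates (RasERT2). All 12 libraries came from cells of this line that carried an inducible hairpin, 0.5 ug/ml doxycycline being used to switch hairpins on. There were 6 groups of 2 libraries. The shIL1R groups, with a hairpin against the interleukin-1 receptor, were taken at day 0 (growing), day 4 (when the senescence-associated secretory phenotype begins) and day 10 (senescent) of Ras induction. The shScr groups, with a scramble hairpin, were taken on the same days. Ras was activated with 200 nM tamoxifen, with ethanol as the control. The study used 2 independent hairpins against the receptor, and which library holds which is not given in the sources used here. The shIL1R libraries of a day were treated as replicates, so their SDs, SEs and p-values may hold a difference between hairpins. Nothing says that replicates were separate cultures, so p-values measure the spread between these libraries, which may be technical.

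Chemokines are small secreted proteins that steer cells along a gradient by binding receptors with a seven-pass membrane topology. CXCL10 and CXCL11 bind CXCR3 on activated T cells and natural killer cells and are classic interferon-induced genes. CXCL12 binds CXCR4 and the atypical receptor ACKR3 and is a product of many stromal fibroblasts. CXCL14 is made by epithelia and some fibroblasts, and its receptor use is debated. CXCL16, which binds CXCR6, and CX3CL1, which binds CX3CR1, are the members of the chemokine family made as membrane proteins and released by shedding. Senescent cells secrete many chemokines, and interleukin-1 signalling through NF-kB is a known driver of that secretion.

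The stretches before the start sites of 3 of the genes are shown because 2 of them, CXCL10 and CXCL11, are neighbours on chromosome 4 and CXCL12 moved in the other direction. Each is the 250 bases before the RefSeq start (GRCh38.p14), written 5′ to 3′ on the gene's own strand, which is the minus strand for all 3. RefSeq promoters were found for 4 of the 6 genes. Capitals mark matches to an NF-kB motif, to the core of the interferon-stimulated response element (GAAANNGAAA), to an AP-1 motif (TGANTCA) or to a TATA box (TATAAA), searched on both strands.
CXCL10 is at chr4:76023498-76023747, CXCL11 at chr4:76036071-76036320 and CXCL12 at chr10:44385098-44385347.
CXCL10: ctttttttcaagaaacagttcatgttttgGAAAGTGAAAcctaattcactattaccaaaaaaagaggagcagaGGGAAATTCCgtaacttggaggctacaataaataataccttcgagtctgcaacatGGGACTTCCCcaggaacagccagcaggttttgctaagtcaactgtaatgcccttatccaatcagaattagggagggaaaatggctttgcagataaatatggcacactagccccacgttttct
CXCL11: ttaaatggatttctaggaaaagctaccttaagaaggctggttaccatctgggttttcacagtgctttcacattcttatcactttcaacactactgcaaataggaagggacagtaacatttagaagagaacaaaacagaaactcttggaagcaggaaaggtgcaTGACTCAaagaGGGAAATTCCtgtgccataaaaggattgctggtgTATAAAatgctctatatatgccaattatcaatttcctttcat
CXCL12: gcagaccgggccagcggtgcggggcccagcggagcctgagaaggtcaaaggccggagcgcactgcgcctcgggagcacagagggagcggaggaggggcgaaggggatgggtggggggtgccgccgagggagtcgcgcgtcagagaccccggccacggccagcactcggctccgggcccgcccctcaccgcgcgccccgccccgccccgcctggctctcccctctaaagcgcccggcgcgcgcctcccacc
The CXCL10 stretch holds 2 NF-kB matches, at −177 to −168 and −122 to −113 from the start, and 1 interferon-response core at −221 to −212. The CXCL11 stretch holds 1 NF-kB match at −76 to −67, 1 AP-1 match at −87 to −81 and 1 TATA match at −42 to −37. No motif of the 4 was found in the CXCL12 stretch, and the CXCL14 stretch held 1 AP-1 match. Of 27305 promoters of the same length, 9.57% held an NF-kB match, 3.07% the interferon-response core, 6.60% an AP-1 match and 11.1% a TATA match. These are letter matches, and nothing about binding was measured.

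Levels are deposited normalized counts, reads divided by a library factor, in which 1 read was worth 0.835 to 1.20. Recovered gene-assigned reads ran from 24140324 to 30127727 per library. Log2 fold changes compare log2(normalized count + 1) and carry the SE of a limma fit to all 12 libraries, and a gene is called below an adjusted p of 0.05 over the 13924 genes tested. The hairpin target IL1R1 had 731 and 378 normalized counts in shIL1R and 1509 and 1552 in shScr libraries at day 0. At day 4 it had 272 and 86.4 in shIL1R and 1546 and 1423 in shScr, and at day 10 it had 295 and 280 in shIL1R and 1580 and 1240 in shScr. It was called lower in shIL1R cells at day 4 (limma adjusted p = 0.0205) and day 10 (0.0102) and not at day 0 (0.281). The day 4 call was lost in the fit of those groups alone (limma adjusted p = 0.156) and on dropping any 1 of the shScr day 0 or day 4 libraries (0.0631 to 0.144). Dropping replicate 2 of shScr day 10 ended the day 10 call (−2.46, limma adjusted p = 0.0696). Within shIL1R cells IL1R1 was called lower at day 4 than at day 0 (−1.77 ± 0.42, limma adjusted p = 0.00674). Day 10 against day 0 was −0.87 ± 0.42 (0.0955). Comparisons of days in shIL1R cells, and the interactions, therefore also hold a change in the level of the target. Its part in the chemokine changes was not tested. Along the first principal component, the day 10 libraries of shIL1R lay at 77.2 (replicate 1) and 45.9 (replicate 2), against 90.5 and 89.2 for shScr day 10.

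Markers of the labelled cell type and of others were read as whole lists, and their part in the results was not tested. All 9 fibroblast markers were tested. At day 10 against day 0, 2 rose (30.0% of all genes) and 5 fell (30.3%) in shIL1R cells, and 1 rose (32.5%) and 5 fell (31.3%) in shScr cells. With 1 library left out the 5 became 3 without replicate 2 of shIL1R day 0 or replicate 1 of shIL1R day 10, and 3 without replicate 1 of shScr day 0, and the 2 became 1 on dropping shIL1R day 0 replicate 1. Their sum at day 10 was 325000 to 480019 normalized counts in shIL1R and 314753 to 326875 in shScr libraries. Of 7 endothelial markers 5 were tested, and in each genotype 3 of them, KDR, TIE1 and VWF, rose and 1, TEK, fell (a call lost in shScr cells on dropping their day 0 replicate 1 or day 10 replicate 2). KDR reached 216, TIE1 539 and VWF 63.7 normalized counts, while CDH5 was at 0 in every library. The endothelial sum at day 10 was 2036 to 2179 in shIL1R and 1574 to 1896 in shScr libraries, most of it TEK. Of 7 epithelial markers 3 were tested, and 2 rose and 0 fell in shIL1R cells, while 0 rose and 1 fell in shScr cells (dropping shIL1R day 0 replicate 1, 1 also fell in shIL1R cells). KRT18 reached 3014, KRT8 640.0 and KRT19 141 normalized counts, KRT5 was at 0 in every library, and the sum at day 10 was 2879 to 3134 in shIL1R and 2136 to 2178 in shScr libraries.

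CXCL10, CXCL12 and CXCL16 reached 10 normalized counts in 2 or more libraries and were tested. CXCL11, CXCL14 and CX3CL1 were not, so counts of called genes refer to 3 of the 6. CXCL16 reached 10 only at day 10, so counts at day 10 include a gene let in by its day 10 values. CXCL10 reached 10 only at days 4 and 10. Its rises over day 0, and the counts that include them, are thus those of a gene let in by its later values. In shIL1R cells 1 of the 3 was called at day 4 against day 0 (40.4% of all genes tested), 3 at day 10 against day 0 (60.3%) and 1 at day 10 against day 4 (35.9%). In shScr cells 2 were called at day 4 against day 0 (38.3%), 2 at day 10 against day 0 (63.8%) and 3 at day 10 against day 4 (44.1%). Against these backgrounds the counts do not set the chemokines apart. Between shIL1R and shScr cells 0 were called at day 0 (0.0646%) and 0 at day 4 (0.280%), with 0 below an unadjusted p of 0.05 and 0 by edgeR or DESeq2 on either day. At day 10 1 was called (9.21%).

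**Figure D1:**
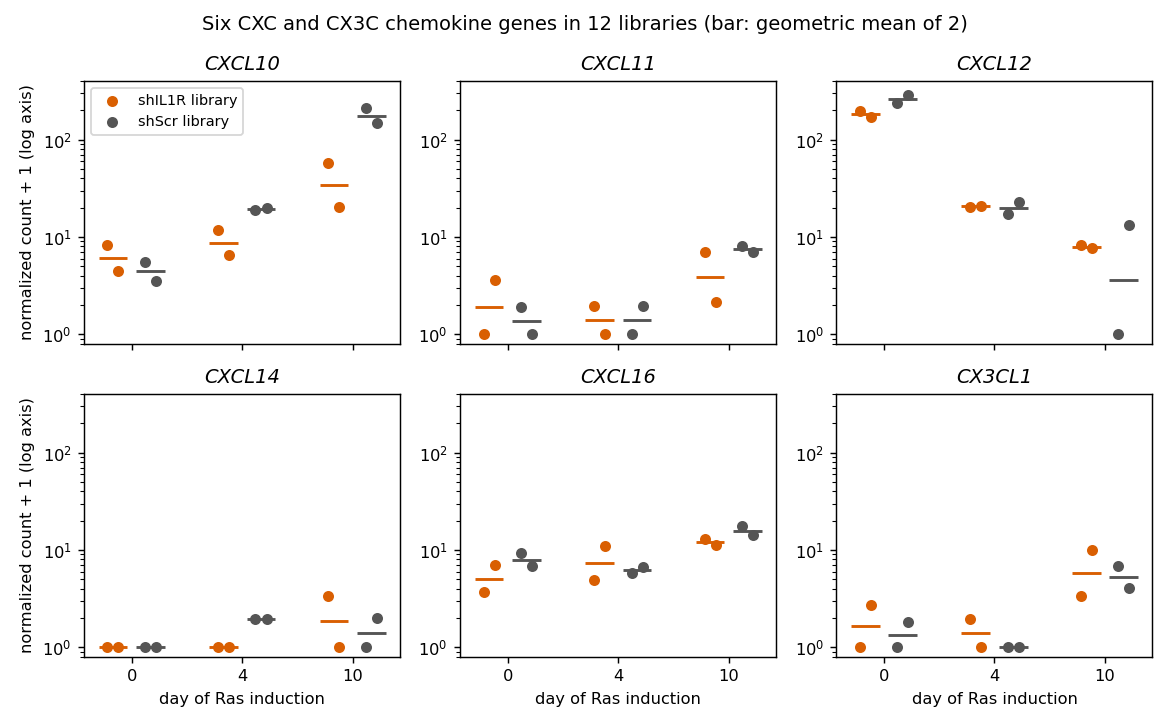
Normalized count plus 1 (log axis) of the 6 chemokine genes at days 0, 4 and 10. Each point is a library, orange for shIL1R and grey for shScr, and each bar is a group's geometric mean (n = 2). CXCL10 reaches 209 and 147 normalized counts in shScr cells at day 10, CXCL12 lies at 168 to 290 at day 0 and at 12.2 or less at day 10, and CXCL14 stays at 2.40 or less.

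CXCL10 rose by day 10 in both genotypes and was lower in shIL1R than in shScr cells on that day. At day 0 it had 7.18 and 3.44 normalized counts in shIL1R libraries, against 4.59 and 2.50 in shScr libraries. At day 4 it had 10.7 and 5.54 in shIL1R libraries, against 18.1 and 18.9 in shScr libraries. At day 10 it had 56.4 and 19.2 in shIL1R libraries, against 209 and 147 in shScr libraries. The genotypes overlap at day 0 and are apart at days 4 and 10, with shIL1R lower. The day 4 difference was not called (limma adjusted p = 0.276). How many of all genes lie apart in this way was not counted. In shIL1R cells days 4 and 0 overlap, while within shScr cells each later day lies above the earlier one.

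In shIL1R cells CXCL10 averaged 5.31 ± 2.65 normalized counts at day 0, 8.14 ± 3.68 at day 4 and 37.8 ± 26.3 at day 10 (SD, n = 2 each). Its log2 fold change at day 10 over day 0 was 2.50 ± 0.53 (limma adjusted p = 0.00178), and at day 4 over day 0 the value was 0.54 ± 0.53 (adjusted p = 0.446). Day 10 against day 4 passed at 1.96 ± 0.53 (limma adjusted p = 0.0147). That last call was lost without replicate 2 of shIL1R day 4 (1.53, adjusted p = 0.105), without replicate 1 of shIL1R day 10 (1.20, 0.0998) and with the groups compared alone (limma adjusted p = 0.084).

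In shScr cells CXCL10 averaged 18.5 ± 0.606 normalized counts at day 4 and 3.55 ± 1.48 at day 0 (SD, n = 2 each), a log2 fold change of 2.14 ± 0.53 (limma adjusted p = 0.00842). The day 4 call was lost when replicate 2 of shScr day 0 was left out (1.80, limma adjusted p = 0.0721). At day 10 shScr cells averaged 178 ± 43.9, 50.1 times the day 0 mean, with a log2 fold change of 5.31 ± 0.53 (limma adjusted p = 6.42e-06). The day 10 rise over day 4 was 3.18 ± 0.53 on the log2 scale (limma adjusted p = 0.000753). No alternative ended either of these day 10 calls.

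At day 10 CXCL10 was lower in shIL1R cells by a log2 fold change of −2.37 ± 0.53 (limma adjusted p = 0.0215), and the shScr mean was 4.71 times the shIL1R mean. At day 4 the log2 fold change was −1.15 ± 0.53 (adjusted p = 0.276) and at day 0 0.45 ± 0.53 (adjusted p = 0.877). The day 10 call was lost on leaving out replicate 1 (−2.12, limma adjusted p = 0.0888) or 2 (−2.62, 0.112) of the shScr day 10 pair or replicate 2 of shIL1R day 10 (−1.62, 0.0995), and with the groups compared alone (limma adjusted p = 0.0963). Without replicate 1 of shIL1R day 10 it was −3.13 (limma adjusted p = 0.00208), and edgeR and DESeq2 on recovered reads called it (adjusted p = 0.00838 and 0.000378).

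The interaction asks whether the rise from day 0 differed between genotypes. At day 10 it was −2.82 ± 0.75 on the log2 scale (shIL1R minus shScr) and missed the threshold (limma adjusted p = 0.0759). None of the 3 tested chemokines was called for it at either day, against 2.41% of all genes at day 10 and 0.0287% at day 4. At day 10 limma put 1 of them below an unadjusted p of 0.05, edgeR called 0 and DESeq2 called 1. CXCL10 passed at day 10 with a pseudocount of 5 (−2.48, limma adjusted p = 0.0474), with the replicate block (0.0298) with DESeq2 (adjusted p = 0.0487) and without replicate 1 of shIL1R day 10 (−3.57, limma 0.00706). It missed without replicate 2 of shIL1R day 10 (−2.06, limma adjusted p = 0.121) and without any 1 of the remaining libraries, with an adjusted p up to 0.254. It also missed with edgeR (adjusted p = 0.148), with no filter (limma 0.129) and with the groups compared alone (0.128). At day 4 the interaction was −1.60 ± 0.75 (limma adjusted p = 0.467), with 0 of the 3 below an unadjusted p of 0.05 and 0 by edgeR or DESeq2.

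In order of their means, shScr day 10 lay highest for CXCL10, followed by shIL1R day 10, shScr day 4, shIL1R day 4, shIL1R day 0 and shScr day 0. The shIL1R day 10 and shScr day 4 means differ by less than the SD of the first. The libraries of shIL1R day 4 and day 0 overlap, as do those of the genotypes at day 0.

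**Figure D2:**
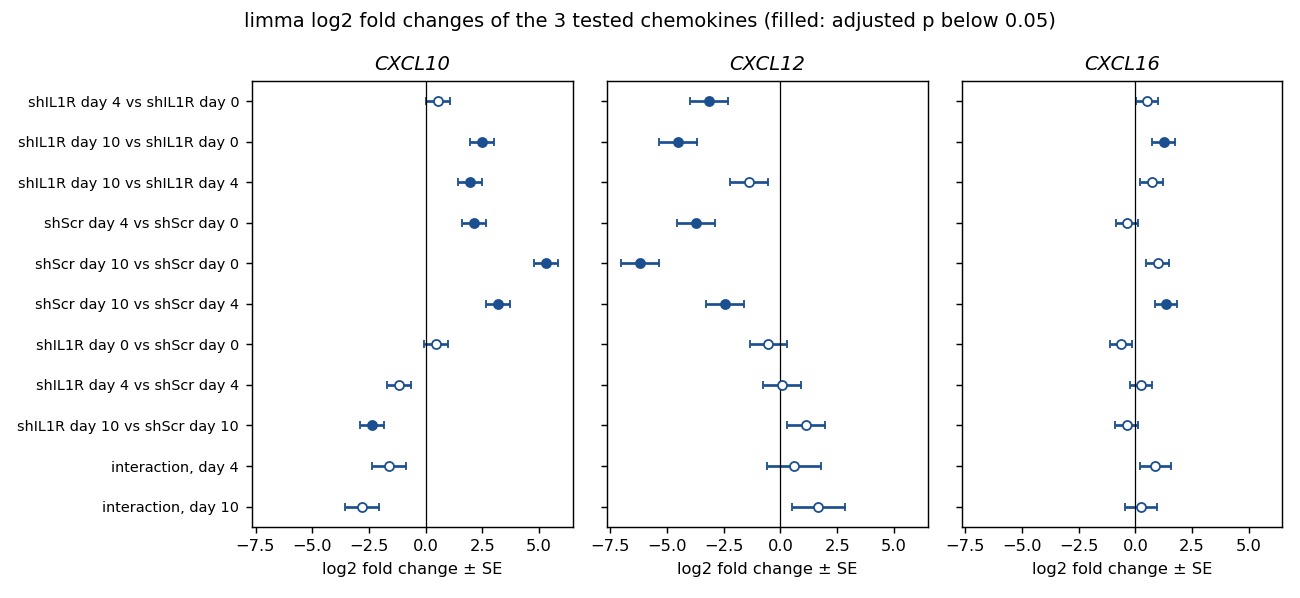
limma log2 fold changes (points) with their SE (bars) of CXCL10, CXCL12 and CXCL16 in 9 comparisons and 2 interactions, filled where the adjusted p is below 0.05. CXCL10 lies at 5.31 and CXCL12 at −6.19 for shScr day 10 against day 0, and between genotypes at day 10 CXCL10 lies at −2.37.

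CXCL11, a high-affinity agonist of CXCR3, was near the limit of detection. At day 10 it had 6.0 and 1.13 normalized counts in shIL1R and 7.08 and 6.08 in shScr libraries. At days 0 and 4 no library exceeded 2.58. In reads, day 10 held 6 in shIL1R and 12 in shScr cells, and day 0 held 3 in shIL1R and 1 in shScr cells. Both shScr day 10 libraries lie above every day 0 and day 4 library. With no filter on low values, shScr cells at day 10 had a log2 fold change of 2.45 over day 0 (limma adjusted p = 0.0202) and of 2.44 over day 4 (0.0308). Of the genes that overlap CXCL10 and CXCL11 on the other strand in GENCODE 29, ART3 never exceeded 22.3 normalized counts, and whether the counting used strand is not given in the sources used here. CXCL9, the remaining CXCR3 ligand, never exceeded 1.18.

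CXCL12 fell in both genotypes. At day 0 it had 197 and 168 normalized counts in shIL1R libraries, against 239 and 290 in shScr libraries. At day 4 it had 19.5 and 19.9 in shIL1R libraries, against 16.2 and 21.8 in shScr libraries. At day 10 it had 7.19 and 6.77 in shIL1R libraries, against 0 and 12.2 in shScr libraries. Day 0 is far above both later days in each genotype. The genotypes overlap at days 4 and 10, and at day 0 both shIL1R libraries lie below both shScr libraries.

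In shIL1R cells CXCL12 averaged 19.7 ± 0.280 at day 4 and 182 ± 20.4 at day 0 (SD, n = 2 each), a log2 fold change of −3.14 ± 0.83 (limma adjusted p = 0.0120). This call was lost without any 1 of the 4 libraries compared, where the change stayed between −3.25 and −3.03. No other alternative ended it, and over the other settings the change lay between −3.21 and −2.91. The SE is shared by all 6 groups, the shScr day 10 pair at 0 and 12.2 included. At day 10 the mean was 6.98 ± 0.299 and the log2 fold change against day 0 −4.52 ± 0.83 (limma adjusted p = 0.000727). Day 10 against day 4 was −1.38 ± 0.83 (adjusted p = 0.225), and it passed with DESeq2 (−1.50, adjusted p = 0.0252) and on leaving out either shScr day 10 library (replicate 1 0.00248, replicate 2 0.00339, limma adjusted p).

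In shScr cells CXCL12 averaged 19.0 ± 3.96 at day 4 and 264 ± 35.9 at day 0 (SD, n = 2 each), a 13.9-fold higher mean at day 0, and its log2 fold change was −3.74 ± 0.83 (limma adjusted p = 0.00482). At day 10 the mean was 6.08 ± 8.59 and the log2 fold change against day 0 was −6.19 ± 0.83 (limma adjusted p = 6.50e-05). The day 10 group holds 12 reads in 1 library and 0 in the other, where a count of 0 allows up to 3.54 normalized counts. Day 10 lay below day 4 with a log2 fold change of −2.45 ± 0.83 (limma adjusted p = 0.0338). Without replicate 1 of shScr day 10, the library at 0, this last change was −0.59 (limma adjusted p = 0.156), and it missed without replicate 1 (adjusted p = 0.0823) or 2 (0.137) of shScr day 4, with edgeR (0.0726) and in 3 other fits. Without either shScr day 10 library the day 10 fall from day 0 lay between −8.04 and −4.33 and was called.

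Between shIL1R and shScr cells CXCL12 gave log2 fold changes of −0.53 ± 0.83 at day 0 (limma adjusted p = 0.920), 0.07 ± 0.83 at day 4 (0.981) and 1.14 ± 0.83 at day 10 (0.407). The day 10 value turned to −0.72 (adjusted p = 0.162) without replicate 1 of shScr day 10 and was 3.0 (adjusted p = 0.00353) without replicate 2, so 1 library sets its sign. The day 10 interaction was 1.67 ± 1.18 (limma adjusted p = 0.469). By mean, CXCL12 was highest in shScr day 0 and then in shIL1R day 0. The day 4 groups followed and did not differ beyond their spread, and the day 10 groups came last and did not either. In bulk RNA, fewer cells with the transcript and less transcript per cell cannot be told apart.

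CXCR4, the signalling receptor for CXCL12, was the tested one of 5 receptor genes. CXCL12 lost most of its level by day 4, while CXCR4 rose mostly between days 4 and 10. CXCR4 had 0 and 1.72 normalized counts in shIL1R and 0 and 0.834 in shScr libraries at day 0. At day 4 it had 6.84 and 9.97 in shIL1R and 9.51 and 5.68 in shScr libraries. At day 10 it had 396 and 42.9 in shIL1R and 618 and 913 in shScr libraries. The day 10 libraries lie above all others, and replicate 2 of shIL1R day 10 lies well below its partner. Only day 10 libraries reached 10 normalized counts, so CXCR4 too entered the test through the day at which it was high.

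At day 10 CXCR4 had 368 reads in shIL1R cells, against 2 at day 0, with a log2 fold change of 6.32 ± 0.84 (limma adjusted p = 7.08e-05). In shScr cells it had 1426 reads at day 10, against 1 at day 0 (9.12 ± 0.84 on the log2 scale, limma adjusted p = 3.71e-06). With so few day 0 reads these sizes depend on the pseudocount, ranging in shScr cells from 7.13 to 10.78 over the other settings. The day 4 rises were 2.49 ± 0.84 in shIL1R (limma adjusted p = 0.0362) and 2.63 ± 0.84 in shScr cells (0.0297). Both calls were lost with a pseudocount of 5, no filter and edgeR, and the shScr call with quantile normalization too. They were also lost without 3 (shIL1R) or any (shScr) of the 4 libraries compared. The shIL1R call was lost without either shScr day 10 library as well. Between genotypes at day 10 CXCR4 was −2.51 ± 0.84 (limma adjusted p = 0.0866), −4.10 (0.00143) without replicate 1 of shIL1R day 10 and −0.92 (0.419) without replicate 2. With DESeq2 it was −1.81 (adjusted p = 0.0375), and it missed with every other single library left out (limma adjusted p up to 0.392) and in every other setting, edgeR included (adjusted p up to 0.253). The other 4 receptors were too low to test, with ACKR3 at no more than 9.47, CXCR6 at 8.86, CX3CR1 at 1.13 and CXCR3 at 1.01 normalized counts in any library.

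CXCR4 is also a gene of many leukocytes, so markers of these were read beside it. Of 7 leukocyte markers 2, CD68 and LAPTM5, were tested, and 5 never exceeded 10 normalized counts. At day 10 against day 0, 2 of 2 rose in shIL1R (30.0% of all genes) and in shScr cells (32.5%). The shIL1R count was not stable to leaving out 1 library. With CD68 the sum of the 7 was 5792 to 8517 normalized counts in shIL1R and 7434 to 9076 in shScr libraries at day 10. At day 0 it was 2849 to 2888 in shIL1R and 2868 to 3149 in shScr libraries. Without CD68, which fibroblasts also express, their sum was 10.2 to 42.0 in shIL1R day 10, 129 to 156 in shScr day 10 and at most 12.7 in the other groups. LAPTM5, a lysosomal membrane gene, gave most of it, with 37.2 and 6.77 in shIL1R and 142 and 120 in shScr libraries at day 10. PTPRC, the pan-leukocyte marker CD45, never exceeded 3.04, and CD3E was at 0. The part of such cells in the CXCR4 and CXCL10 values was not tested.

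**Figure D3:**
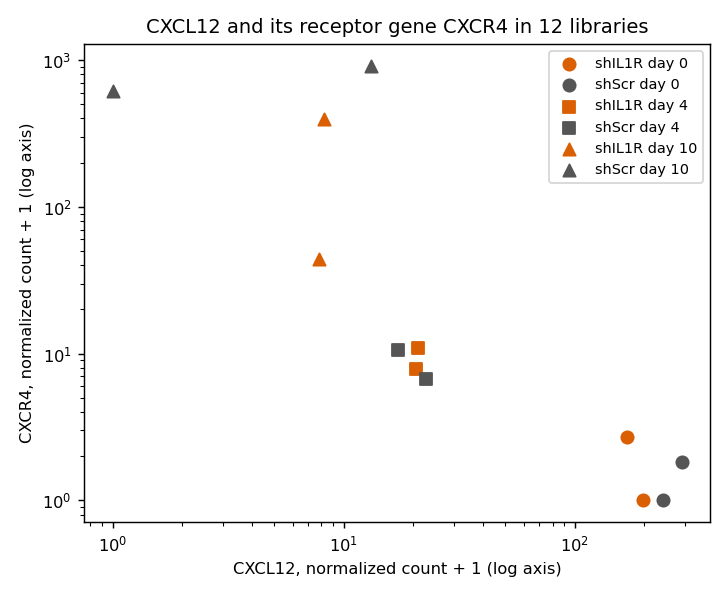
Normalized count plus 1 of CXCR4 against that of CXCL12 (log axes), a point per library, with colour for the hairpin and shape for the day. Day 0 libraries lie at the lower right (CXCL12 168 to 290, CXCR4 up to 1.72) and day 10 libraries at the upper left (CXCL12 up to 12.2, CXCR4 42.9 to 913).

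CXCL14 was at or near 0 throughout. It had 0 reads in all 4 day 0 libraries and in both shIL1R day 4 libraries. The highest library, replicate 1 of shIL1R day 10, had 2.40 normalized counts, and replicate 2 had 0. The shScr libraries had 0.951 and 0.946 at day 4 and 0 and 1.01 at day 10. No difference was detectable at this depth.

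CXCL16 and CX3CL1, the membrane-anchored chemokines, were low and tended to be highest at day 10. At day 0 CXCL16 had 2.69 and 6.02 normalized counts in shIL1R and 8.27 and 5.84 in shScr libraries. At day 4 it had 3.91 and 9.97 in shIL1R and 4.76 and 5.68 in shScr libraries, and at day 10 it had 12.0 and 10.2 in shIL1R and 16.5 and 13.2 in shScr libraries. In shScr cells both day 10 libraries exceed all earlier ones. In shIL1R cells they do so only narrowly. There the 10.2 at day 10 and the 9.97 at day 4 differ by less than 1 read was worth (1.13 and 1.11). Only day 10 libraries reached 10 normalized counts, so CXCL16 entered the test through the day at which it was high.

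CXCL16 was called in shIL1R cells at day 10 against day 0 (1.24 ± 0.49 on the log2 scale, limma adjusted p = 0.0481) and in shScr cells at day 10 against day 4 (1.35 ± 0.49, 0.0455). Both calls are marginal: without a filter they missed (adjusted p = 0.0712 and 0.0671), as they did with DESeq2 (0.176 and 0.135) and when 1 library of the groups compared was left out (0.0783 to 0.289 for 3 of the 4 libraries, and 0.094 to 0.174 for all 4). In shScr cells day 10 against day 0 gave 0.98 ± 0.49 (limma adjusted p = 0.102). In shIL1R against shScr cells at day 10 it was −0.39 ± 0.49 (adjusted p = 0.652). Its means ordered as shScr day 10, shIL1R day 10, shScr day 0, shIL1R day 4, shScr day 4 and shIL1R day 0, the last 4 of which overlap their neighbours in that order. MED11, on the other strand, overlaps CXCL16 and had 121 to 199 normalized counts, so a part of the CXCL16 count could be its reads if strand was not used.

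CX3CL1 had 2.40 and 9.03 normalized counts in shIL1R and 5.90 and 3.04 in shScr libraries at day 10. No library of days 0 and 4 exceeded 1.72. It had 10 reads in shIL1R and 8 in shScr cells at day 10. With no filter its day 10 rise over day 0 was 1.82 in shIL1R (limma adjusted p = 0.0478) and 1.96 in shScr cells (0.0326), and over day 4 it was 2.05 in shIL1R (0.0477) and 2.40 in shScr cells (0.0196).

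Per kilobase of exon (GENCODE 29), CXCL10 was the highest of the 6 at day 10, with means of 32.1 normalized counts per kilobase in shIL1R and 151 in shScr cells. CXCL12 was the highest at day 0, with 30.0 per kilobase in shIL1R and 43.5 in shScr cells. CXCL16 reached 3.96 per kilobase in shIL1R and 5.31 in shScr cells at day 10. CXCL14 and CX3CL1 stayed below 1 per kilobase in all 6 groups.

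Genes that shed or trim these chemokines in other settings were followed as a list of 11, including ADAM10 and ADAM17, sheddases of CXCL16 and CX3CL1, and DPP4, which trims CXCL10 and CXCL12. MMP9, 1 of the 11, had reads in only 4 libraries, so it entered the test through libraries in which it was high. In shIL1R cells at day 10 against day 0, 9 of 11 rose (30.0% of all genes) and 1 fell (30.3%). In shScr cells 10 of 11 rose (background 32.5%) and 1 fell (31.3%), with a median log2 fold change of 2.19 against 0.01 for all genes tested. There MMP3 rose by 6.87 ± 0.37 (limma adjusted p = 7.42e-08) and MMP1 by 4.43 ± 0.18 (1.31e-08), both matrix metalloproteinases. At day 10, 4 of 11 were lower in shIL1R than in shScr cells (4.85% of all genes) and 0 higher (4.37%), among them MMP3 (−2.84 ± 0.37, limma adjusted p = 0.00285), the lysosomal protease gene CTSS (−2.32 ± 0.39, 0.00722) and DPP4 (−0.55 ± 0.13, 0.0285). The 1 that fell in shScr cells was not called without replicate 1 of shScr day 10. The count of 4 was 7 without replicate 1 of shIL1R day 10 and 1 without replicate 2 of shScr day 10.

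All 10 genes of a list of NF-kB regulators and targets were tested. In shIL1R cells at day 10 against day 0, 5 rose (30.0% of all genes) and 0 fell (30.3%). The 5 became 3 without replicate 2 of shIL1R day 0 or replicate 1 of shIL1R day 10, and dropping a shIL1R day 10 library put 2 (replicate 1 dropped) or 1 (replicate 2 dropped) below the threshold as lower. In shScr cells 8 rose (32.5%) and 0 fell (31.3%), with ICAM1, an adhesion gene, up by 5.74 ± 0.47 (limma adjusted p = 1.50e-06) and TNFAIP3, a feedback inhibitor, up by 3.30 ± 0.68 (0.00140). In shIL1R against shScr cells at day 10, 5 were lower (4.85%) and 0 higher (4.37%), with BIRC3 at −2.60 ± 0.54 (limma adjusted p = 0.0171) and ICAM1 at −2.42 ± 0.47 (0.0130). The count of 5 was 8 without replicate 1 of shIL1R day 10, 3 without any 1 of the 4 day 0 libraries, and among shScr day 10 libraries 2 without replicate 1 and 0 without replicate 2.

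Of 16 interferon-stimulated genes 11 were tested, and TAP1 and PSMB9 were at 0 in all libraries. In shIL1R cells at day 10 against day 0, 5 rose (30.0% of all genes) and 3 fell (30.3%). In shScr cells 4 rose (32.5%) and 5 fell (31.3%), with RSAD2 at 3.53 ± 0.77 (limma adjusted p = 0.00206) and OAS3 at −2.47 ± 0.44 (0.000512). The 4 became 2 without either shScr day 0 library and 1 without replicate 1 of shScr day 10, and the 5 became 3 without replicate 2 of shScr day 10. Set against shScr, shIL1R cells at day 10 had 3 that were higher (4.37%) and 0 lower (4.85%), opposite in sign to CXCL10, with OAS2 at 2.89 ± 0.69 (limma adjusted p = 0.0277), IFIT1 at 2.29 ± 0.53 (0.0243) and GBP1 at 0.70 ± 0.14 (0.0126). OAS2 had 32.4 and 68.8 normalized counts in shIL1R and 9.44 and 3.04 in shScr libraries. Only the shIL1R day 10 libraries reached 10 normalized counts for OAS2. It thus entered the test through the group in which it was high, and the count of 3 includes it. The count of 3 was 8 without replicate 1 of shIL1R day 10, 1 without replicate 2 of shIL1R day 10, and leaving out shScr day 10 libraries gave 6 (replicate 1) and 0 (replicate 2).

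Of 14 interferon signalling genes 13 were tested, and IFNB1 was at 0 in every library. In shIL1R cells at day 10 against day 0, 7 rose (30.0% of all genes) and 2 fell (30.3%). In shScr cells 6 rose (32.5%) and 1 fell (31.3%), with IRF1, a transcription factor, up by 1.12 ± 0.10 (limma adjusted p = 1.97e-06) and JAK2 at −1.18 ± 0.13 (1.28e-05). Of the 13, IFNAR1, a receptor subunit, was the 1 called in shIL1R against shScr cells at day 10, at −0.56 ± 0.09 (limma adjusted p = 0.00624), against 4.85% of all genes called lower and 4.37% higher. With 1 library left out 0 to 2 of the 13 were called lower (2 without replicate 1 of shIL1R day 10, 0 without replicate 2 of shScr day 10). From 0 to 2 were called higher (2 without replicate 1 of shIL1R day 10 or of shScr day 10).

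The neutrophil-attracting CXC chemokines give a comparison within the family. In shIL1R cells at day 10 against day 0, limma called 0 of 6 (30.0% of all genes rose and 30.3% fell), with 1 below an unadjusted p of 0.05, 2 called by edgeR and 2 by DESeq2. Without replicate 2 of shIL1R day 10 limma called 4 higher, and without replicate 1 it called 2 lower. In shScr cells 6 of 6 rose (32.5% of all genes), with a median log2 fold change of 5.18, and CXCL10 rose by 5.31. Between shIL1R and shScr cells at day 10, 6 of 6 were lower (4.85%), with CXCL5 at −6.77 ± 0.43 (limma adjusted p = 3.76e-05) and CXCL8 at −4.27 ± 0.66 (0.00512), and 2 were called without replicate 2 of shScr day 10.

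**Figure D4:**
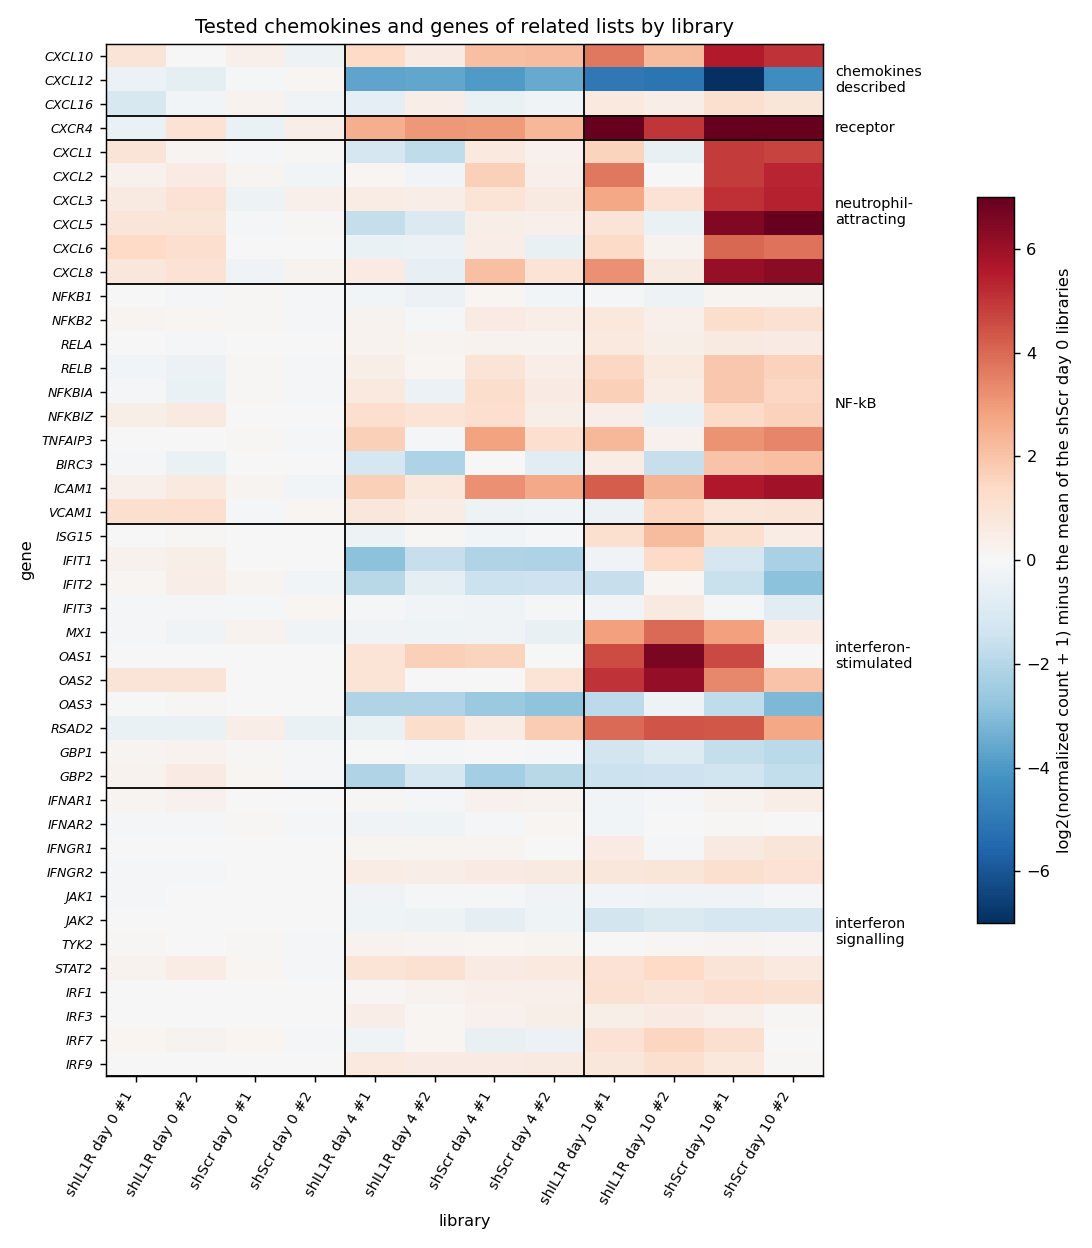
Difference of log2(normalized count + 1) from the mean of the shScr day 0 libraries, for tested genes (rows, by list, with 1 interferon signalling gene not shown) in each library (columns, by day), with the colour scale ending at 7 in either direction. The neutrophil-attracting genes, CXCL10 and most of the NF-kB genes have their highest value in a shScr day 10 column, while RELA and VCAM1 have it in a shIL1R day 10 column. OAS2 and IFIT1 are also warmer in the shIL1R day 10 columns.

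The genes most like each tested chemokine were taken by Pearson's r of log2 values over the 12 libraries, among 11862 candidates, as a description over libraries that share day and hairpin. For CXCL10 they were HIST2H2BE (r = 0.993), SERPINA1 (0.988) and RAP1GAP2 (0.987). SERPINA1 averaged 22.4 normalized counts in shIL1R and 124 in shScr cells at day 10. For CXCL12 they were CSRP1 (0.976), SFXN2 (0.969) and AP2B1 (0.967), and for CXCL16 YTHDF1 (0.911), TMEM214 (0.890) and CDH15 (0.887).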

How the data were processed

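Poly(A) RNA of 12 libraries in 6 groups of 2 was analysed. Libraries were strand-specific, per the labels' protocols. Per the submitters' processing notes TopHat, HTSeq and DESeq2 and the build hg19 were used, with no versions. The annotation and the strand setting are not given in the sources used here. The deposited values are normalized counts per gene, a signal of reads divided by a library factor. Division by what 1 read was worth gave whole numbers for 100% of values (within 0.001 reads), so reads were recovered.

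Of 27106 genes, 6344 were at 0 in all libraries, and 13924 reaching 10 normalized counts in 2 or more libraries entered the test. The test was limma 3.58.1 (R 4.3.3) on log2(value + 1), 6 group means over 12 libraries, eBayes with trend, two-sided, with Benjamini-Hochberg adjustment over the genes of each of 11 comparisons. Alternatives were pseudocounts of 0.5 and 5, no filter or a filter of 50, TMM, quantile normalization, a replicate block, the groups compared alone, robust eBayes, recovered reads in edgeR 4.0.16 or in DESeq2 1.42.0, and each library left out. List counts without a library and the CXCR4 alternatives were added after seeing the data. The fit was tested on simulated data with the same dispersion for every gene and changes set only in better expressed genes. That simulation does not show how the fit behaves for genes as low as most of these chemokines.

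The members and lists were chosen with earlier results of these data known. Named were all 6 chemokines, IL1R1, and from each list the called genes that moved most in a comparison (4 or fewer), of which the text prints some. Genes singled out beyond that were chosen after their values were seen. Similar genes needed a highest group mean of at least 50. Read sums carry counting error only. The values of 1 gene of the interferon signalling list are not reported here.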

Additional observations from a re-analysis of the deposited data

How the results depend on the processing

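Among the single values of the tested chemokines, 357 of those with 1 library left out kept direction and side of the threshold, 28 lost a call, 5 gained one and 6 changed sign. Of those with another setting, 330 kept both, 18 lost a call, 4 gained one and 0 changed sign. Counts of chemokines called with 1 library left out ranged from 1 to 2 (shScr day 4 against day 0), 1 to 3 (shScr day 10 against day 4), 0 to 1 (shIL1R day 4 against day 0), 2 to 3 (shIL1R day 10 against day 0), 0 to 2 (shIL1R day 10 against day 4), 0 to 1 (shIL1R against shScr at day 10) and 0 to 1 (interaction at day 10). With no filter 4 were called for shScr day 10 against day 0 and 2 for shIL1R day 10 against day 4. With the groups compared alone 0 were called for shIL1R day 10 against day 4 and 0 between genotypes at day 10. DESeq2 called 2 for shIL1R day 10 against day 4, and edgeR and DESeq2 called 2 each for shIL1R day 10 against day 0. For the day 10 interaction 1 was called with a pseudocount of 5, 1 with DESeq2 and 1 with the replicate block. Unless a left-out library or fewer genes tested shows it, the cause was not tested.

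Replicate numbers paired the libraries weakly at most. Over 15 pairs of groups the deviations of same-numbered libraries correlated at −0.102 to 0.231, with 4 over 0.1. Within shIL1R cells day 4 correlated with day 0 at 0.231 and with day 10 at 0.203, and day 0 with day 10 at 0.053. Between shIL1R day 10 and shScr day 4 the value was 0.185. Whether same-numbered shIL1R libraries share a hairpin was not tested. As a block the replicate numbers raised the count at the day 10 interaction to 1 (CXCL10, limma adjusted p = 0.0298). CXCL16 then missed at shIL1R day 10 against day 0 (0.0533) and shScr day 10 against day 4 (0.051).

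With 1 library left out, log2 fold changes that were not called changed sign as follows. CXCL16 ranged from −0.054 to 1.11 (shIL1R day 4 against day 0), −0.34 to 0.82 (shIL1R against shScr, day 4) and −0.21 to 0.72 (day 10 interaction). CXCL12 ranged from −0.14 to 0.27 (shIL1R against shScr, day 4), −0.72 to 3.0 (day 10) and −0.19 to 3.53 (day 10 interaction). CXCR4 ranged from −0.44 to 1.01 (shIL1R against shScr, day 0), −0.18 to 0.47 (day 4) and −0.86 to 0.58 (day 4 interaction, 0.074 with quantile normalization). IL1R1 in shScr cells ranged from −0.11 to 0.014 (day 4 against day 0), −0.30 to 0.046 (day 10 against day 0) and −0.26 to 0.092 (day 10 against day 4). Depth limits CXCL11, CXCL14 and CX3CL1, which no group took above 12 reads.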
